A study of Mus musculus with 3 samples.

Results

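Transcripts of 52 genes that build the mitotic spindle, attach chromosomes to it and time their separation were described in mouse haematopoietic stem cells. The genes were taken from a list of mitosis genes by their function, and all 52 had a probe set of their own among the 19938 genes measured. Top2a alone had more than 1 probe set, and Sgol1 was found under its current symbol, Sgo1. The cells were sorted from bone marrow of wild-type C57Bl/6 mice aged 6 to 10 weeks as KLS SLAM cells. Such cells carry CD150, c-Kit and Sca-1 on their surface and lack CD41, CD48 and the markers of mature lineages. Their RNA was amplified before it was labelled. There were 3 arrays of this 1 group, called arrays 1, 2 and 3 here, so that no genotype or treatment was compared, and nothing in the labels says that the arrays came from separate animals. Differences between arrays therefore measure only the spread between these samples, which may be technical.

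Most stem cells of this phenotype rest outside the cell cycle, and the genes of mitosis are known as a sign of the cells that do divide. Cyclin B with its kinase CDK1 drives a cell into mitosis. Aurora and Polo-like kinases then assemble the spindle, and kinetochores built on centromeric chromatin bind its microtubules. The spindle assembly checkpoint holds the anaphase promoting complex back until every chromosome is attached. Many of these genes are silenced in resting cells by the DREAM complex and switched on late in the cycle through promoter elements named CHR and CCAAT box.

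Values are log2 of the deposited intensities. Median intensities were 60.4, 58.0 and 56.7 on arrays 1, 2 and 3, and Pearson's r across all genes, which are not independent replicates, was 0.940 to 0.951 between arrays. A background limit was set for each array at the 95th percentile of 1233 olfactory, vomeronasal and taste receptor genes, which are used mainly in sensory tissue. It lay at 6.29, 5.98 and 5.77 log2 on arrays 1, 2 and 3. A gene above the limit on all 3 arrays is called above the background range. A gene outside that range is not thereby absent, because probe sets differ in affinity, and no gene's level is ranked against another's. In RNA from many cells, fewer dividing cells and less RNA per dividing cell cannot be told apart. Of the genes of the sort, Kit was at 10.01 ± 0.23 and Slamf1, the gene of CD150, at 6.51 ± 0.13 (SD, n = 3), both above the range. Cd48, used to exclude cells, was at 4.61, 5.62 and 6.14 and passed the limit on array 3. Itga2b, the gene of the excluded marker CD41, was above the range at 6.37 ± 0.14, and Ly6a is not analysed here. On array 1 Kit passed the limit by 3.98 log2, Slamf1 by 0.11 and Itga2b by 0.22, so that Slamf1 did not stand out from an excluded marker.

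Mitosis genes often sat around the background limit. Of the 52 genes, 13 were above the range, 25.0%, while 36.8% of all genes were. A further 26 of the 52 passed the limit on 1 or 2 arrays, beside 21.1% of all genes. The remaining 13 passed it on none, beside 42.0% of all genes. Array by array, 20 of the 52 passed the limit on array 1 and 22 on array 2, which is 38.5% and 42.3%, beside 39.3% and 49.1% of all genes. On array 3, 38 passed, or 73.1%, beside 55.3% of all genes. The limit itself was lowest on array 3. The count above the range therefore depended on which arrays were required. Without array 1 it was 21 of 52, 40.4% beside 46.9% of all genes, and without array 2 it was 19, 36.5% beside 38.7%. These shares describe the arrays and were not tested, since genes are no replicates. The median of the gene means was 6.14 log2 for the mitosis genes and 5.96 for all genes.

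**Figure D1:**
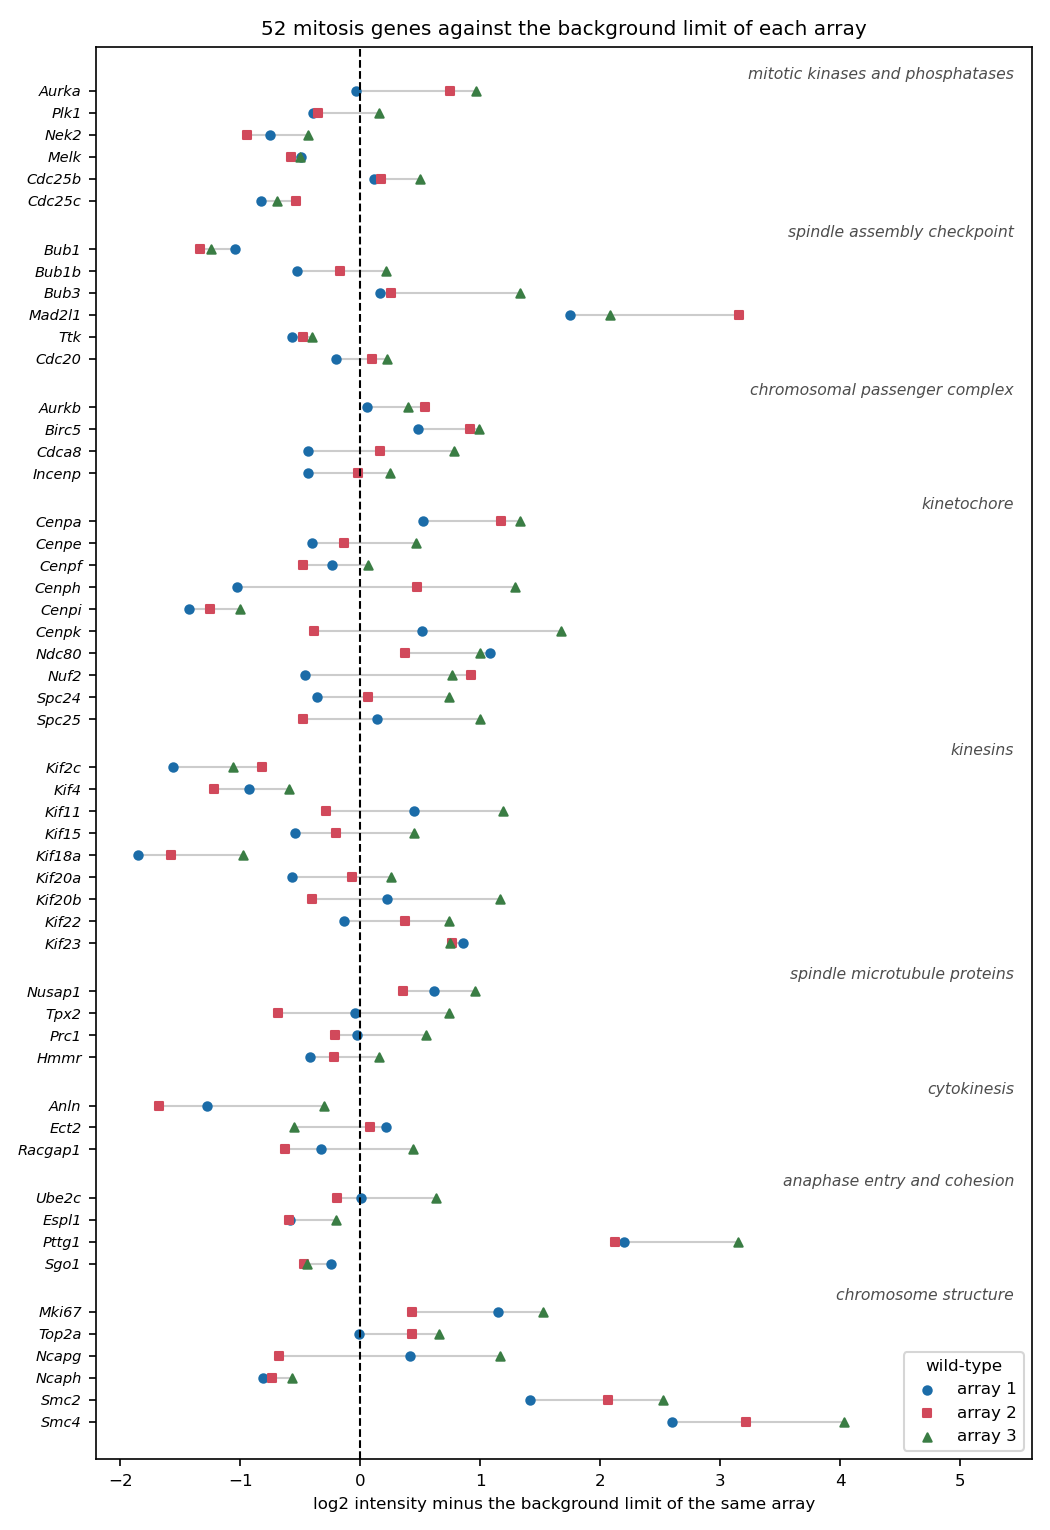
Log2 intensity of each of the 52 mitosis genes minus the background limit of the same array (horizontal axis), with 1 symbol per array and genes grouped by function; the grey line joins a gene's lowest and highest value, and the dashed line at 0 is the limit. Mad2l1, Pttg1, Smc2 and Smc4 lie over 1 log2 above the limit on all 3 arrays. How many of all genes do so was not counted. On both sides of the limit lie the symbols of 26 genes, beside 21.1% of all genes.

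Among genes of chromosome structure, 3 of 6 were above the range. This count and those of the groups below stand beside 36.8% of all genes. Smc2 and Smc4, the ATPase subunits of condensin, which compacts chromosomes, were at 7.71, 8.05 and 8.29 and at 8.89, 9.19 and 9.80 on arrays 1, 2 and 3. Both were lowest on array 1 and highest on array 3. Ncapg and Ncaph are their partners in condensin I. Ncapg was at 6.71, 5.30 and 6.93, below the limit on array 2, and Ncaph at 5.49, 5.24 and 5.19 was below it on every array. Genes of the same complex thus lay on both sides of the limit. Mki67, which encodes the proliferation antigen Ki-67 that coats mitotic chromosomes, was above the range at 7.45, 6.41 and 7.29, with array 2 about 1 log2 under the other arrays.

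The 2 probe sets of Top2a, the topoisomerase that untangles sister chromatids, disagreed. One was at 7.72, 7.47 and 7.96, above the limit on all 3 arrays, and the other at 4.85, 5.34 and 4.88, below it on all 3. They also differed in order, since array 2 was the lowest for the first and the highest for the second. Their average, 6.37 ± 0.07 (SD, n = 3), missed the limit on array 1 narrowly and described neither. With the brighter probe set in its place, 14 of the 52 genes were above the range.

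Genes that time the separation of chromosomes gave 1 of 4 above the range. Pttg1, or securin, which keeps separase inactive until anaphase, was at 8.49, 8.10 and 8.92, over 2 log2 above the limit on each array. Separase itself, Espl1, which cuts cohesin, was at 5.71, 5.39 and 5.56, and Sgo1, or shugoshin, which protects centromeric cohesin, at 6.05, 5.51 and 5.33. Both stayed below the limit on every array. Ube2c, the ubiquitin-conjugating enzyme of the anaphase promoting complex, was at 6.30, 5.78 and 6.40 and missed the limit on array 2 alone.

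Of the spindle assembly checkpoint 2 of 6 genes were above the range. Mad2l1, the inhibitor that unattached kinetochores pass on to Cdc20, was at 8.04, 9.14 and 7.85. It was the only mitosis gene at least 0.5 log2 higher on array 2 than on both others. Bub3, which brings the Bub kinases to kinetochores, was at 6.46, 6.24 and 7.09. The other members stayed near or under the limit. Cdc20, the activator that the checkpoint restrains, was at 6.09, 6.08 and 5.99, an SD of 0.06, and missed the limit on array 1 alone. Bub1b was at 5.77, 5.81 and 5.99, while the kinases Bub1 and Ttk, at 5.25, 4.64 and 4.52 and at 5.72, 5.50 and 5.37, passed it on no array.

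The chromosomal passenger complex, which corrects faulty attachments, had 2 of 4 genes above the range. Its kinase Aurkb was at 6.35, 6.51 and 6.17 and survivin, Birc5, at 6.77, 6.89 and 6.75. Cdca8, or borealin, was at 5.86, 6.14 and 6.55, and the scaffold Incenp at 5.86, 5.96 and 6.01. All 4 genes varied by less than 1 log2 between arrays, and none was lowest on array 2.

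The widest spans between arrays were those of 2 kinetochore genes, Cenpk with 3.60-fold and Cenph with 3.47-fold. Of 10 genes, 2 were above the range: Cenpa, the histone H3 variant that marks centromeres, at 6.81, 7.15 and 7.09, and Ndc80, the microtubule-binding subunit, at 7.38, 6.35 and 6.77. The partners of Ndc80 did not share its order. Nuf2 was at 5.83, 6.90 and 6.53, lowest on array 1 where Ndc80 was highest. Spc25 was at 6.43, 5.50 and 6.77 and Spc24 at 5.94, 6.04 and 6.51. The inner kinetochore genes Cenph and Cenpk were at 5.26, 6.45 and 7.06 and at 6.81, 5.59 and 7.44. Cenpi, of the same subcomplex, stayed under the limit at 4.87, 4.73 and 4.76. The motor Cenpe was at 5.90, 5.84 and 6.23 and the corona protein gene Cenpf at 6.06, 5.50 and 5.83, each above the limit on array 3 alone.

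Of 9 kinesin motors, Kif23 alone was above the range. Kif23, a motor of the central spindle, was at 7.15, 6.74 and 6.51. Kif11, the motor that pushes spindle poles apart, was at 6.74, 5.69 and 6.96, and Kif20b at 6.52, 5.58 and 6.93. These motors passed the limit on arrays 1 and 3 and missed it on array 2. Kif22 was at 6.16, 6.35 and 6.51 and missed it on array 1. Kif15 at 5.75, 5.77 and 6.21 and Kif20a at 5.72, 5.91 and 6.03 passed it on array 3 alone. Kif2c, Kif4 and Kif18a, with means of 4.87 ± 0.25, 5.10 ± 0.31 and 4.54 ± 0.22 (SD, n = 3), passed it on none.

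Of the other spindle and cytokinesis genes Nusap1, which bundles spindle microtubules, was above the range at 6.91, 6.33 and 6.72. Tpx2, the activator of Aurora A, was at 6.25, 5.29 and 6.50. Prc1, the crosslinker of the spindle midzone, was at 6.26, 5.76 and 6.31, and Hmmr at 5.88, 5.76 and 5.92. All 4 had their lowest value on array 2. None of 3 cytokinesis genes was above the range. The contractile ring protein gene Anln was at 5.02, 4.30 and 5.46 and Racgap1, the partner of Kif23, at 5.97, 5.35 and 6.20. Ect2, which Racgap1 recruits to activate RhoA, was at 6.51, 6.06 and 5.21, lowest on array 3.

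Mitotic kinases and phosphatases had 1 of 6 above the range, Cdc25b, a phosphatase that activates CDK1, at 6.41, 6.15 and 6.27. Aurka, which matures centrosomes, was at 6.26, 6.73 and 6.73 and missed the limit on array 1 by 0.03 log2. Plk1, which acts throughout mitosis, was at 5.90, 5.63 and 5.92 and passed it on array 3 alone. Nek2, Melk and Cdc25c passed it on none, with means of 5.30 ± 0.26, 5.49 ± 0.28 and 5.33 ± 0.22 (SD, n = 3).

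**Figure D2:**
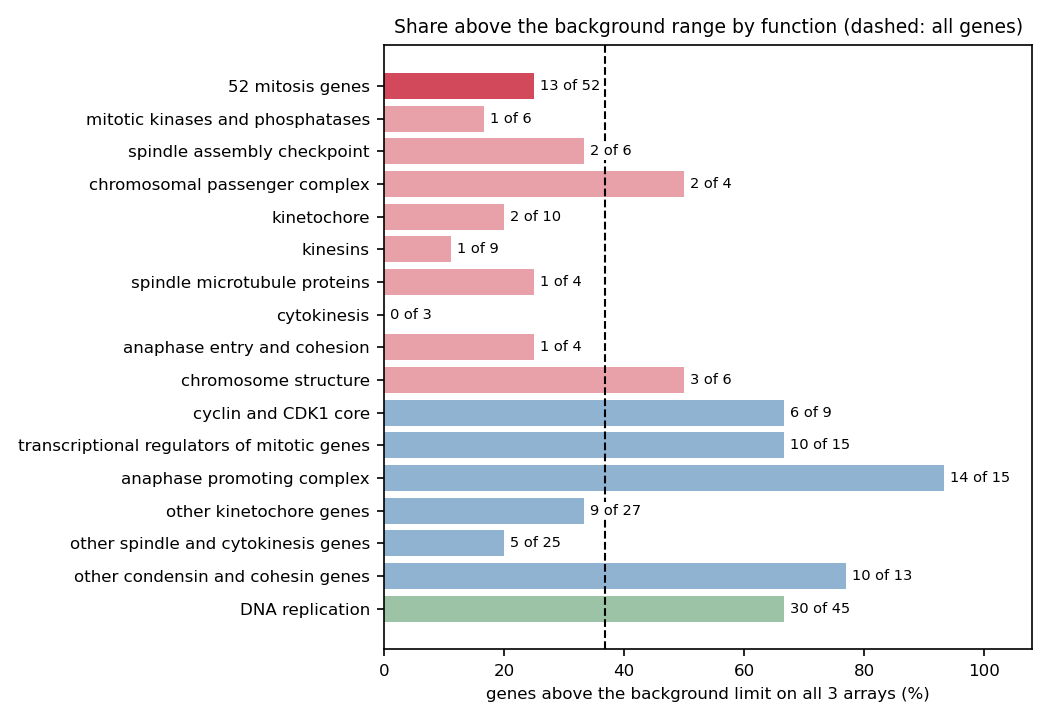
Share of genes above the background limit on all 3 arrays (horizontal axis, percent) for the 52 mitosis genes and their functional groups (red), for other mitosis genes (blue) and for DNA replication genes (green), with counts beside the bars; the dashed line is the share of all genes. The mitosis genes stand at 25.0%, under the 36.8% of all genes. The list of the anaphase promoting complex and factors that act with or on it has 14 of 15 genes above the limit.

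Other genes of the pathway were read in the same way from 6 lists with 104 measured genes. They are called other mitosis genes here, although the lists include regulators of transcription and cohesin genes. Above the range were 54 of the 104, or 51.9%, beside 36.8% of all genes, and the share differed between the lists. Of the anaphase promoting complex, needed also outside mitosis, and factors that act with or on it, 14 of 15 were. Among them were Anapc1 at 7.80 ± 0.25 and Anapc4 at 7.86 ± 0.40. Anapc2 at 6.09 ± 0.45 was not (SD, n = 3). Of the condensin and cohesin genes 10 of 13 were, including Smc1a at 10.65 ± 0.17, Smc3 at 9.74 ± 0.16 and Rad21 at 9.21 ± 0.10. Cdca5 at 5.80 ± 0.36, Ncapd2 at 6.15 ± 0.10 and Ncapg2 at 5.41 ± 0.44 were not. Of other kinetochore genes 9 of 27 were, 33.3%, near the share of all genes. Cenpb at 6.56 ± 0.20 and Cenpc1 at 7.05 ± 0.46 were above the range and Cenpl at 5.33 ± 0.39 was not. Of other spindle and cytokinesis genes 5 of 25 were, namely Kif2a at 9.21 ± 0.18, Ckap5 at 7.72 ± 0.23, Tacc3 at 7.05 ± 0.56, Plk4 at 6.94 ± 0.29 and Cdca3 at 6.37 ± 0.04.

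Of the core that drives entry into mitosis 6 of 9 genes were above the range. Cdk1 was at 6.40, 6.28 and 6.79 and Ccnb2, a B-type cyclin, at 7.25, 6.87 and 7.49. Both were lowest on array 2. Cks1b and Cks2, small subunits that bind CDK1, were at 8.71, 7.96 and 9.45 and at 6.66, 7.91 and 7.84. Wee1 and Pkmyt1, kinases that hold CDK1 inactive, were at 8.30 ± 0.67 and 7.03 ± 0.12 (SD, n = 3). Ccna2 at 6.10 ± 0.42, Cdc25a at 6.35 ± 0.22 and Ccnf at 5.40 ± 0.09 were not above the range, and Ccnb1 is not analysed here.

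Of 15 genes that regulate mitotic transcription 10 were above the range. Foxm1 and Mybl2, activators of late cell cycle genes, were at 5.78, 5.83 and 5.82 and at 6.42, 6.66 and 5.79. Foxm1 passed the limit on array 3 alone and Mybl2 passed it on each. Of the DREAM complex, Rbl2, the gene of the pocket protein p130 of resting cells, was at 7.96 ± 0.07 (SD, n = 3). Its partners E2f4 at 6.71 ± 0.21, Lin37 at 7.25 ± 0.05, Lin52 at 6.46 ± 0.30, Rbbp4 at 7.63 ± 0.25 and Tfdp1 at 8.11 ± 0.13 were also above the range. Rbl1 was at 6.91, 5.49 and 6.70, Lin9 at 5.93, 4.40 and 6.04, E2f5 at 5.58, 4.82 and 6.00 and Lin54 at 6.24, 6.18 and 6.47, and none of these was above it. The subunits of NF-Y, the factor of CCAAT boxes, were above it, with Nfya at 7.96 ± 0.63, Nfyb at 7.03 ± 0.44 and Nfyc at 7.19 ± 0.18.

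Between arrays the mitosis genes tended to be low on array 2. Of the 52 genes, 25 had their lowest value there, 48.1%, beside 28.8% of all genes, and 6 had their highest value there, beside 38.6%. On array 3, 28 genes had their highest value, 53.8% beside 29.8% of all genes. Array 2 lay below array 3 for 37 genes, 71.2% beside 43.9% of all genes, and below array 1 for 34, 65.4% beside 46.2%. Array 1 lay below array 3 for 30 genes, 57.7% beside 48.8%. The median difference of array 2 from array 3 was -0.27 log2 for the mitosis genes, 0.06 for all genes and -0.07 for all genes above the range. From array 1 it was -0.24, 0.04 and -0.008. After the arrays were brought together by cyclic loess, which removes shifts that follow the level of a gene, 27 genes were lowest on array 2, beside 33.4% of all genes. Among the 13 genes above the range 6 were, beside 36.7% of all genes above it. Of all genes above the range 40.5% were highest on array 3. In these genes array 2 lay below array 3 for 56.6% and below array 1 for 50.9%, and array 1 below array 3 for 56.2%.

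**Figure D3:**
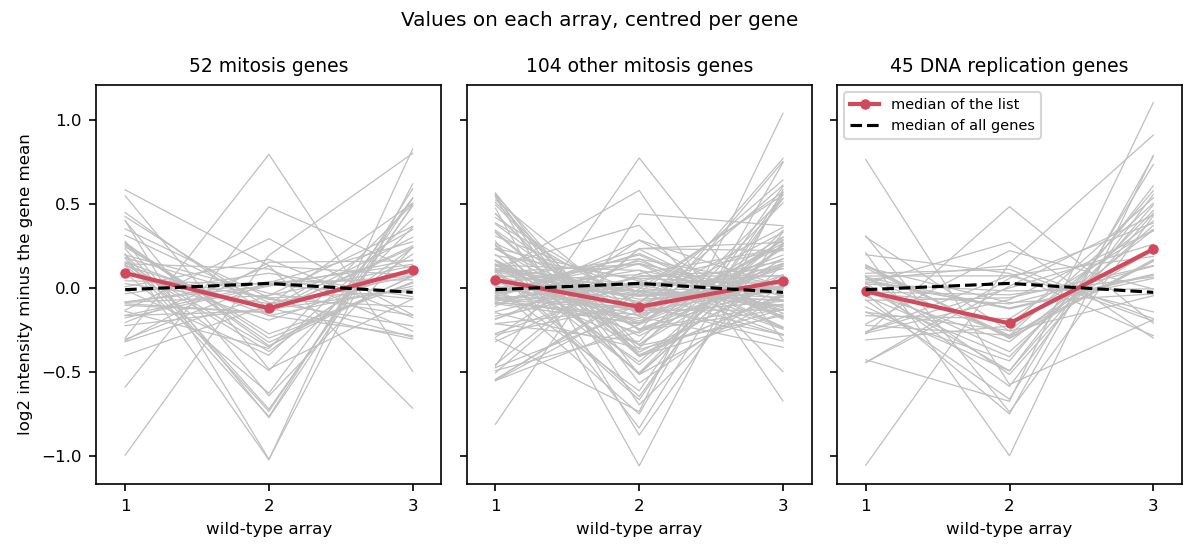
Log2 intensity minus the mean of the gene over the arrays (vertical axis) on each of the 3 wild-type arrays for the 52 mitosis genes, 104 other mitosis genes and 45 DNA replication genes; each grey line is a gene, the red line the median of the list and the dashed line the median of all genes. The red line dips at array 2 in each panel, to -0.12, -0.11 and -0.21, where all genes have 0.03 and all genes above the background range -0.03.

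A group of 11 mitosis genes, picked after the values were seen, lay at least 0.5 log2 lower on array 2 than on both others. They were Mki67, Ncapg, Kif11, Kif20b, Tpx2, Prc1, Spc25, Cenpk, Anln, Racgap1 and Ube2c, 21.2% of the list, beside 4.86% of all genes. The same drop was found on array 1 for Cenph and Nuf2, beside 4.76% of all genes, and on array 3 for Ect2, beside 2.72%. A value at least 0.5 log2 above both others was found on array 1 for Bub1, Ndc80 and Sgo1, beside 4.11% of all genes, and on array 2 for Mad2l1, beside 4.65%. On array 3 it was found for Bub3, Cenph, Cenpk and Smc4, beside 6.25%. Of the 11 genes low on array 2, Mki67 alone was above the range, a count that the low value on array 2 helps to set. Ncapg, Kif11, Kif20b, Spc25, Cenpk and Ube2c missed the limit on array 2 alone.

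The spread of single genes did not pass a test across all genes. Values spanned over 1 log2 in 13 of the 52 genes, 25.0% beside 10.5% of all genes, and 9 of the 13 were lowest on array 2. How many of all genes with such spans were lowest there was not counted. Over 2 arrays fewer genes of any kind span as much. Without array 2 the count was 2, Cenph and Ect2, 3.85% beside 5.09% of all genes. Without array 1 or array 3 it was 8, 15.4% beside 5.22% and 4.97%. In limma's one-sided F test of each gene's variance against the trend at its level, 0 of the 52 genes and 0.0% of all genes passed after Benjamini-Hochberg adjustment. With 3 arrays this test can pass only spreads many times the trend, so that the absence of calls says little about how steady the genes were. At an unadjusted p under 0.05 there were 9 mitosis genes, 17.3%, beside 5.1% of all genes. Without array 2 there were 2, beside 5.80% of all genes, so the higher share was not seen without that array. Without array 1 there were 10 and without array 3 there were 8, beside 5.58% and 5.37%. The 3 with the smallest p were Cenph, Ncapg and Cenpk. Cenph had an SD of 0.91 log2, 3.94 times the trend, with an adjusted p = 0.894 by limma, and was lowest on array 1. Ncapg had an SD of 0.89, 3.77 times the trend, with an adjusted p = 0.894 by limma. Cenpk had an SD of 0.94, 3.58 times the trend, with an adjusted p = 0.909 by limma. Ncapg and Cenpk were both lowest on array 2.

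**Figure D4:**
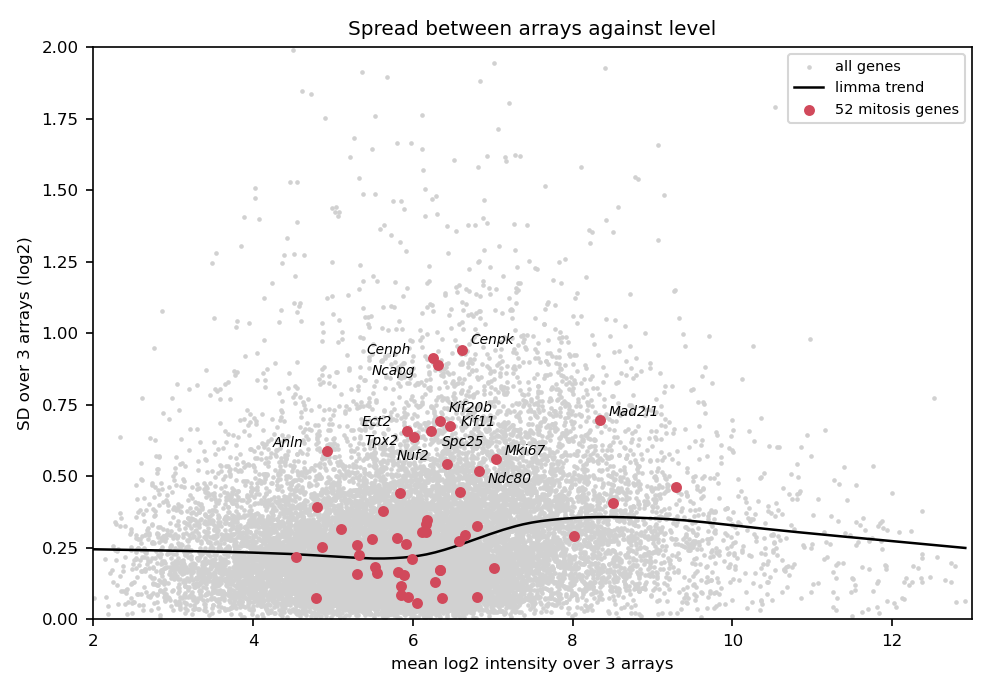
SD over the 3 arrays (vertical axis, log2) against mean log2 intensity (horizontal axis) for all genes (grey; 4 genes with an SD above 2 are not drawn) and the 52 mitosis genes (red), with the limma variance trend as a line; names mark the 13 genes whose values spanned over 1 log2. Cenph, Ncapg and Cenpk stand at SDs of 0.89 to 0.94.

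Array 2 was also low in other lists. Of the 104 other mitosis genes, which include regulators of transcription and cohesin genes, 54 were lowest there, 51.9% beside 28.8% of all genes. Of 45 DNA replication genes 30 were lowest on array 2, 66.7%, and 33 were highest on array 3, 73.3% beside 29.8% of all genes. Among all genes above the background range 36.7% were lowest on array 2 and 40.5% highest on array 3. Of the replication genes 30 were above that range, 66.7% beside 36.8% of all genes. Among them were Mcm2, Mcm3 and Mcm4 of the replicative helicase at 7.16 ± 0.02, 6.88 ± 0.25 and 7.22 ± 0.11 (SD, n = 3). Of 8 measured progenitor markers 6 were lowest on array 2, including Cd34 at a mean of 8.48 ± 0.45 (SD, n = 3) and Flt3 at 7.89, 7.69 and 8.14. The mean of that list was 6.82 on array 1 and 6.74 on array 2, and highest on array 3, with 5 of 8 above the range. Of 9 stem cell markers 2 were lowest on array 2, and their mean was 7.93, 8.20 and 8.15, with 8 above the range, including Procr at 7.39 ± 0.38 and Mecom at 8.09 ± 0.22.

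Markers of mature cells did not share 1 order. Of 14 granulocyte markers 11 were lowest on array 1, where 34.1% of all genes were lowest, and 2 on array 2. Their mean was 7.82, 8.39 and 8.42, and 10 were above the range, including S100a8 and S100a9 at 12.08 ± 0.31 and 12.37 ± 0.38 (SD, n = 3). Of 9 erythroid markers 7 were lowest on array 1, with means of 6.43, 6.81 and 6.93 and 4 above the range. These 4 were Car2 at 9.79 ± 0.38, Hemgn at 7.10 ± 0.55, Tfrc at 6.87 ± 0.38 and Slc4a1 at 6.52 ± 0.12. The other 5 were not above the range, among them the erythroid regulators Klf1 at 5.15 ± 0.27 and Epor at 5.90 ± 0.23. Of 6 megakaryocyte and platelet markers 4 were lowest on array 2, beside 28.8% of all genes. All 6 were lower there than on array 3, with means of 6.38, 6.30 and 6.78. Above the range were 4 of the 6, including Pf4 at 7.23 ± 0.45 but not Ppbp at 6.22 ± 0.54. The monocyte and macrophage markers had 3 of 9 above the range, the B cell markers 1 of 9, the T and NK cell markers 1 of 8 and the stroma and endothelium markers 4 of 9. Of all genes 36.8% were above the range, near the 33.3% of the monocyte and the 44.4% of the stroma list. The part of other cells in the values of the mitosis genes was not tested.

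Promoters of the mitosis genes shared sequence elements that had no part in choosing them. RefSeq promoter windows of 300 bases, 250 before and 50 after the start in GRCm38.p6, were matched for 45 of the 52 genes. The CHR element was searched as TTTGAA or TTTAAA, the CCAAT box as CCAAT, and E2F-type sites as TTGGCGC, as the motif TTCCCGC or as the motif TTCGCGC, all on both strands. TTTAAA reads alike on both strands, and an E2F-type match may overlap a CCAAT box. The CHR letters were found in 31 of the 45 genes, 68.9%, beside 27.0% of 15563 measured genes with a window. CCAAT was found in 32, 71.1% beside 41.7%, and CHR with CCAAT in the same window in 25, 55.6% beside 10.9%. E2F-type letters were found in 9, 20.0% beside 12.7%. Median GC content was 58.7% in the mitosis genes and 57.5% in the measured genes. These are counts of letters, not of bound sites, and were not tested.

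The CHR and CCAAT letters occurred both in genes that were low on array 2 and in genes above the background range, 2 sets that share Mki67. Of the 11 genes low on array 2, 10 had a window, with CHR in 9, CCAAT in 8 and both in 7. Among all 45 matched mitosis genes the shares were 68.9%, 71.1% and 55.6%, and among measured genes 27.0%, 41.7% and 10.9%. With 10 genes these counts do not set the group apart from the list. Of the 13 genes above the range, 11 had a window, with CHR in 7 and CCAAT in 6. Of the matched genes 14 had a stretch of 100 bases before the start that no annotated gene overlaps. Shown are all 4 of them that were low on array 2 (Kif11, Ube2c, Spc25, Racgap1) and the 3 with the smallest SD over the arrays (Cdc20, Cenpi, Birc5), a choice made after the values were seen. Capitals mark CHR and CCAAT letters on either strand, so ATTGG is a CCAAT box and TTCAAA a CHR read on the other strand.
Kif11, plus strand, chr19:37376282-37376381: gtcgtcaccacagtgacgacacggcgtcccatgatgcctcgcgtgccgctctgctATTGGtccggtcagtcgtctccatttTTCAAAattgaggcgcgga
Ube2c, plus strand, chr2:164769829-164769928: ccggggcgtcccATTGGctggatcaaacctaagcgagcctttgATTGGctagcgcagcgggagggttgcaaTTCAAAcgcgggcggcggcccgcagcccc
Spc25, minus strand, chr2:69206214-69206313: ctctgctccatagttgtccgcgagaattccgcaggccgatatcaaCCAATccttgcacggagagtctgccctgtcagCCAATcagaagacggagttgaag
Racgap1, minus strand, chr15:99651657-99651756: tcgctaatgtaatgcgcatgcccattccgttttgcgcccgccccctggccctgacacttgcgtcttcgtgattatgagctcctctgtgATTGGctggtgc
Cdc20, minus strand, chr4:118437344-118437443: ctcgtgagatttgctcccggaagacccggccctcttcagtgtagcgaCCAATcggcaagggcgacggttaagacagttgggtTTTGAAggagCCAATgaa
Cenpi, plus strand, chrX:134307984-134308083: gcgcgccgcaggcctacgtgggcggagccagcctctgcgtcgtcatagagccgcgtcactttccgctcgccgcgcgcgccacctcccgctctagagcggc
Birc5, plus strand, chr11:117849137-117849236: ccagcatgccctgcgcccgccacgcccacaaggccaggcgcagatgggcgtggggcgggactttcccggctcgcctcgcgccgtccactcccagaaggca

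Kif11 and Ube2c, which were at 5.69 and 5.78 on array 2, carried a CHR close to the start with a CCAAT box upstream of it. Cdc20, with an SD of 0.06, also carried a CHR near the start and a CCAAT box upstream of it. Cenpi and Birc5, with SDs of 0.07 and 0.08, had neither in the stretch shown, and in their whole windows Birc5 held CHR letters and Cenpi CCAAT. In all, 5 of the 14 stretches had no CHR or CCAAT letters, and such stretches were not counted over all genes. Spc25 and Racgap1 held CCAAT letters alone in the stretch shown and CHR letters elsewhere in their windows. None of the letters searched was found in the windows of 5 of the 45 genes, Mad2l1, Melk, Nuf2, Nusap1 and Pttg1. Of these, Mad2l1 and Nuf2 were highest on array 2 and Nusap1 and Pttg1 lowest there. A window without a match says only that these letters are not in it.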

How the data were processed

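The authors deposited intensities on a linear scale. Per the submitters' processing notes, they come from Expression Console by Affymetrix with the RMA method. Which arrays shared that step, and the software version and build, were not found in the labels. RMA brings arrays onto a common distribution, which removes most differences in overall brightness. The 35554 probe sets ran from 2.82 to 18384. Through the platform annotation 21789 named 1 gene, 1621 several and 12144 were not listed. Log2 values of single-gene probe sets were averaged per gene.

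All columns of the table were used. Variation was tested with limma 3.58.1 in R 4.3.3: the variance over 3 arrays, on 2 degrees of freedom, against the robust trend, with 4.34 prior degrees of freedom and Benjamini-Hochberg adjustment over 19938 genes. The method was tried on data simulated from the fitted trend. Genes given 10 times the SD were called in 36.0% of cases, those given 40 times in 77.0% and all others in 0.0152%. Such data cannot show whether the model holds for these arrays. The number of arrays limits the precision. Genes named are the 52 mitosis genes, the cyclin and regulator lists in full, the first measured genes of the other lists and those on the rarer side of the limit. The genes and lists were chosen with earlier results of these data known. The alternatives tried were the 99th percentile as limit, the brightest probe set, cyclic loess, each array left out, genes above the range only and a trend without the robust step.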

Additional observations from a re-analysis of the deposited data

How the results depend on the processing

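With the 99th percentile of the receptor genes as limit, 5 of the 52 mitosis genes and 26 of the 104 other mitosis genes were above the range, beside 17.4% of all genes. The brightest probe set gave 14 and 54, and cyclic loess 13 and 54. Leaving out each array gave 14 to 21 mitosis genes above the range, beside 37.0 to 46.9% of all genes, and 2 to 8 spanning over 1 log2, beside 4.97 to 5.22%. The 2 came without array 2, 3.85% beside 5.09%. Among the 13 genes above the range, 6 were lowest on array 2 and 3 spanned over 1 log2. In 2 alternatives added after seeing the data, array 2 was set against a single other array, and 37 genes were lower than on array 3 and 34 lower than on array 1. The variation test passed 0 mitosis genes in each of its 7 alternatives, with 0 to 10 at an unadjusted p under 0.05, beside 4.41 to 5.80% of all genes, of which 2 without array 2, and a smallest adjusted p = 0.567 by limma without array 1. No paired analysis was possible because there is 1 group. Intensities near the limit do not tell dim signal from none.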

Other observations

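Promoters of the 45 DNA replication genes differed in make-up from those of the mitosis genes. A window was matched for 37 of them. E2F-type letters were found in 24, 64.9%, beside 20.0% of the mitosis genes and 12.7% of measured genes. CHR letters were found in 8, 21.6%, beside 68.9% and 27.0%, and CCAAT in 24, 64.9%, beside 71.1% and 41.7%. Both lists were low on array 2, with a median difference from array 3 of -0.44 log2 for the replication genes and -0.27 for the mitosis genes, and after cyclic loess of -0.36 and -0.31. These are counts and medians with no test.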
